A study of Mus musculus with 12 samples.

Results

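The genes described here encode the proteins of the cytosolic ribosome. They were chosen by symbol alone, as every gene named Rps or Rpl with a number and at most 1 further letter (a, x or l), together with Rpsa, Rplp0, Rplp1 and Rplp2. This rule found 82 of the 52636 genes in the deposited tables, 32 of the small and 50 of the large subunit, and used no measured value. RNA was sequenced from the hippocampi of 12 mice, all wild-type C57BL6/J and 18 weeks old. There were 4 groups of 3 mice: high-extinction males, low-extinction males, high-extinction females and low-extinction females. In fear extinction an animal gradually stops showing a fear it had learned, and low was compared with high extinction within each sex. All changes are low minus high extinction. Each library came from its own mouse, and no treatment, transgene or deletion is named for any group. Levels are the deposited TPM (transcript abundance scaled to a fixed total and corrected for transcript length), and reads per library are unknown. Fold changes come from the authors' deposited DESeq2 table for each sex, which was made from counts.

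1 library stood apart. In replicate 1 of the high-extinction males, genes derived from ribosomal RNA took 20.4% of all TPM, against 6.01% to 13.5% in the other 11 libraries. All 8 markers of hippocampal neurons were above 0 in each of the 12 libraries, with sums from 1016 to 1565 TPM. Markers of tissue next to the hippocampus varied widely. The 8 choroid plexus markers summed to between 139 and 4306 TPM per library. The p-values below rest on 3 mice per group.

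A ribosome joins a small subunit, which reads the messenger RNA, to a large subunit, which forms the peptide bonds. Each subunit holds ribosomal RNA and a set of proteins that, apart from those of the stalk, are needed in equal numbers. Most of these proteins are encoded by mRNAs that begin with a terminal oligopyrimidine (TOP) tract, a cytosine followed by a run of pyrimidines. Through this tract the kinase mTORC1 and the RNA-binding protein LARP1 set their translation together, and the RNA-binding proteins encoded by Tia1 and Tial1 also bind such mRNAs. In neurons, ribosomes and ribosomal protein mRNAs are found in dendrites as well as in the cell body, and new protein synthesis is needed for lasting memory. Ribosomal protein genes are also a major source of processed pseudogenes in mammalian genomes, reverse-transcribed copies whose sequence stays close to the parent's.

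The start sites of 5 members show the TOP tract, or its absence at the annotated start for the abundant Rpl41 and Rpl4. Each sequence is from RefSeq on GRCm38.p6 and runs from 40 bases before to 20 bases from the start of transcription. Capitals mark a tract that begins within 5 bases of that start.
Rps21, plus strand, chr2:180257339-180257398: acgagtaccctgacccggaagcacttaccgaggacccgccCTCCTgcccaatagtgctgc
Rplp2, plus strand, chr7:141447611-141447670: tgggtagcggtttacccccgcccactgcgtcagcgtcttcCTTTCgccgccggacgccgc
Rps6, minus strand, chr4:86857348-86857407: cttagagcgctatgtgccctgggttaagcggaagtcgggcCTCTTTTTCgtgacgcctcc
Rpl41, minus strand, chr10:128549149-128549208: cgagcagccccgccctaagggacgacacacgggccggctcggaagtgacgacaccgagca
Rpl4, plus strand, chr9:64173347-64173406: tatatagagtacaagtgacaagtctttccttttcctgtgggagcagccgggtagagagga

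The tract was searched for on the transcribed strand as a C followed by at least 4 pyrimidines, beginning within 5 bases of the annotated start. The promoter table matched 60 of the 82 members with 72 promoters, and 30 of the 72 (41.7%) held the tract, against 18.4% of all 32851 promoters and 22.7% of 75 promoters of mitochondrial ribosomal protein genes. Rpl41 and Rpl4 have no match that begins within 5 bases of the annotated start. In the printed Rpl4 sequence a C followed by a run of pyrimidines lies further upstream, outside the searched positions. From 250 bases before to 50 after the start, the ETS-type motif CCGGAAG, on either strand, stood in 36.1% of the members' promoters and in 8.86% of all promoters. The YY1-type motif AAGATGGC, on either strand, stood in 9.72% and 2.75%, and in 16% of mitochondrial ribosomal protein promoters. TATAAA, on either strand, stood in 8.33% and 13.6%, and in 6.67% of mitochondrial ribosomal protein promoters. Mitochondrial ribosomal protein promoters held CCGGAAG in 34.7%, close to the members' share.

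Ribosomal protein genes have short transcripts, as do nuclear respiratory chain genes. In GENCODE M21 the coding transcripts of both had a median length of 704 bases and those of mitochondrial ribosomal protein genes 1052 bases, against 2246 bases over the 13669 protein-coding genes averaging 1 TPM or more. Small nucleolar RNAs, which guide the modification of ribosomal RNA, lie inside 29 of the 82 members (35.4%), against 1.66% of those protein-coding genes and 0 of 78 mitochondrial ribosomal protein genes. Rpl4 holds 5 of them. Chromosome 7 holds 14 members. In the annotation 5 members overlap another gene on the same strand and 22 a gene on the opposite strand, among them Rps10, Rps14, Rps18, Rps25, Rps28, Rpl18 and Rpl35. The strand setting of the counting is not given in the sources, so reads of such pairs may be mixed. The annotation calls 80 members protein-coding, Rps4l a transcribed processed pseudogene and Rpl6l a processed pseudogene.

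The deposited TPM of the ribosomal protein genes ranged widely. Means over 12 libraries were at least 100 TPM in 13 members, 10 to 100 TPM in 57, 1 to 10 TPM in 9 and under 1 TPM in 3, with a median of 30.0 TPM. The 10 highest members took 48.6% of the members' TPM. Rpl8, which encodes a large-subunit protein next to the peptide-forming centre, was highest at 405 TPM, followed by the stalk protein gene Rplp1 at 357, Rpl4 at 332, Rpl41 at 267 and Rps15 at 259 TPM. Rpl8 lay between 329.9 and 452 TPM in all 12 libraries, a narrow range that the groups share. The lowest members that passed 1 TPM were Rpl9 at 2.39, Rpl37 at 3.10, Rps13 at 4.59, Rpl18 at 5.79 and Rpl36a at 7.35 TPM, although each is a standard ribosome component.

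Paralogs known from other tissues were nearly absent. Rpl3l, the striated muscle form of Rpl3, lay between 0 and 0.488 TPM, and Rpl3 had a mean of 81.9 TPM. Rpl39l, the testis form of Rpl39, lay between 0 and 0.395 TPM, and Rpl10l, the testis form of Rpl10, was listed at 0 in all 12 libraries. These 3 did not reach a mean of 1 TPM in either sex, so 79 members were tested. Rps27l, a paralog of Rps27, had a mean of 19.6 TPM, above the 7.52 TPM listed for Rps27. Rps27 shares 98.6% of its sequence with other genes and Rps27l 22.4%, and which reads came from each gene was not tested. Rps4l lay between 27.4 and 53.9 TPM.

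**Figure D1:**
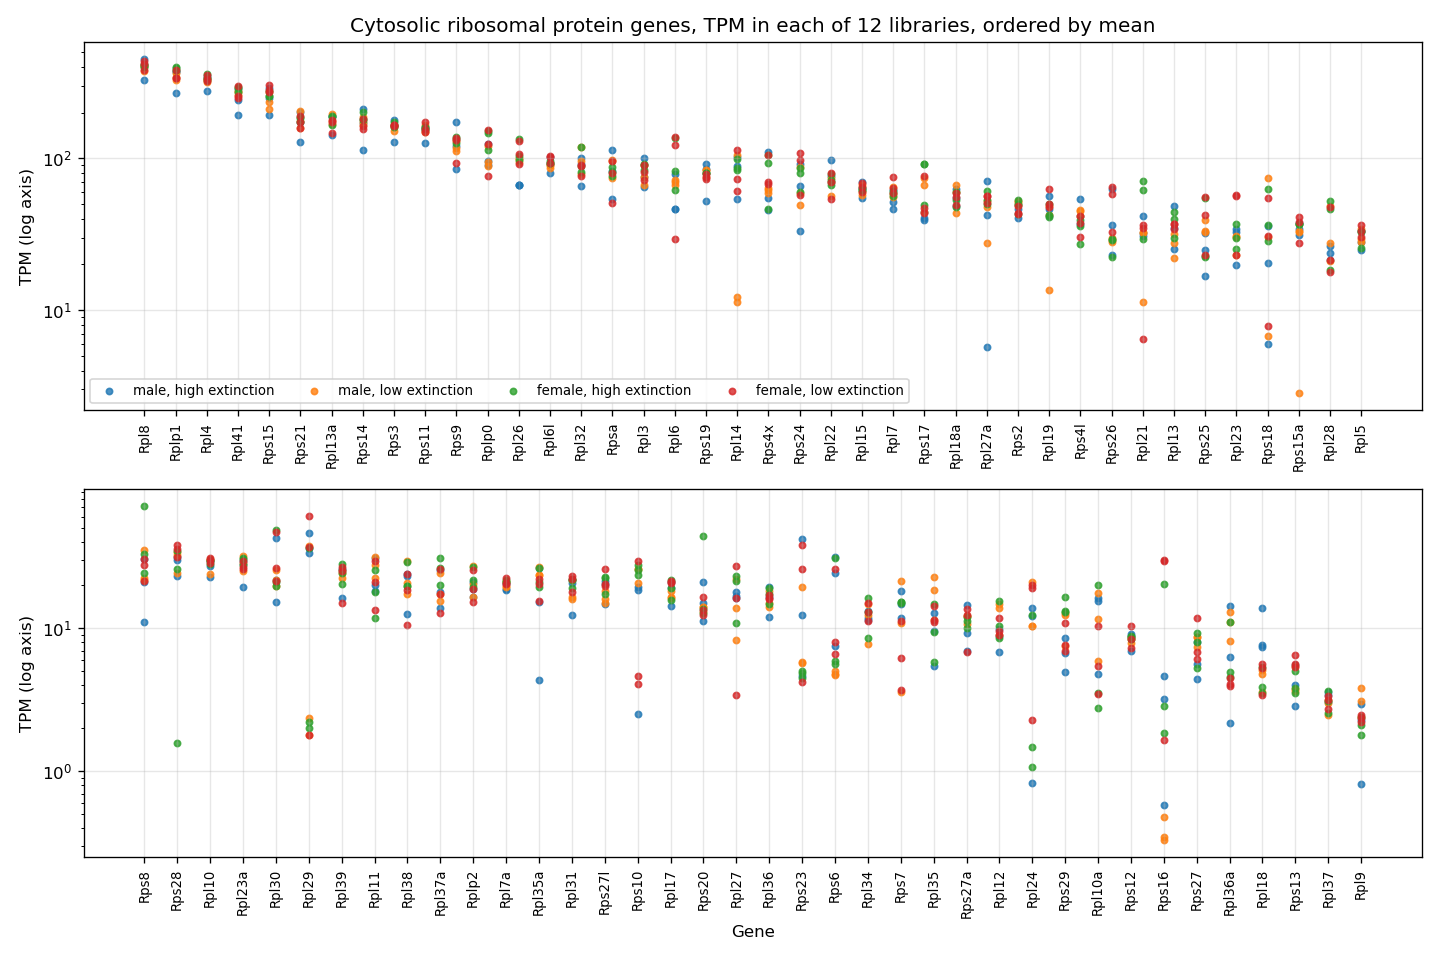
TPM of 78 of the 79 ribosomal protein genes whose mean reached 1 TPM, ordered by that mean, on a log axis. Each point is 1 of 12 libraries, coloured by group. Highly expressed genes such as Rpl8 have points close together, and genes such as Rpl29 and Rps16 have points more than 10-fold apart within a group.

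Much of the members' sequence is shared with other genes. Each gene was represented by a single annotated transcript, which need not be its main one. Of a member's 50-base stretches, a median of 56.0% also occur, on either strand, in the transcripts of other genes. The median was 2.16% for mitochondrial ribosomal protein genes and 0.744% for nuclear respiratory chain genes. In 46 of the 82 members at least 50% was shared. Rps27 shared 98.6%, Rpl35 95.1%, Rpl8 7.86% and Rps3 2.96%. Across the 79 members, the shared percentage and the mean TPM had a Spearman correlation of -0.45, a description over genes that share the same 12 libraries.

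Pseudogenes of these genes had more TPM than the genes themselves. The tables list 981 annotated pseudogenes that share at least one 50-base stretch with a member. In each library they took 1.72% to 2.38% of all TPM, and the members themselves 0.397% to 0.553%. For 67 of the 79 members, the mean TPM was lower than that of their pseudogenes summed. Rps29, a small-subunit protein gene, had 10.1 TPM and its pseudogenes 878 TPM, of which Gm14303 alone held 730.5. Rpl9 had 2.39 and its pseudogenes 459 TPM. Rpl37 had 3.10 TPM and the annotated pseudogene Rpl37rt 467 TPM. Rpl8 was the reverse, with 405 TPM against 21.7. The authors' mean normalized counts, which do not divide by length, were closer to balance: the members summed to 87462 in males and 89136 in females, and the pseudogenes to 82619 and 84615. There, 43 of 79 members were lower than their pseudogenes in each sex. Which of these reads came from the genes was not tested, and a level of a member in these tables is therefore uncertain.

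**Figure D2:**
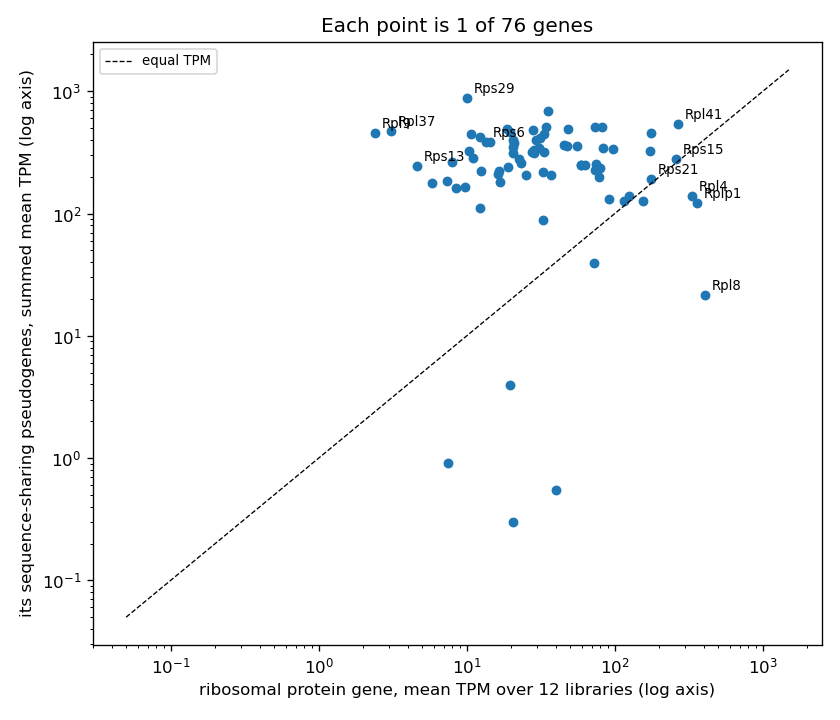
Mean TPM of each ribosomal protein gene (x axis) and the summed mean TPM of the annotated pseudogenes that share sequence with it (y axis), both on log axes, for the 76 genes whose pseudogenes are above 0. Points above the dashed line are genes below their pseudogenes, such as Rps29, Rpl9 and Rpl37, and Rpl8 and Rplp1 lie under it.

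Single members switched between high and low TPM within a group. A ratio of 4 or more between 2 libraries of the same group, computed as (TPM + 1) over (TPM + 1), occurred in 18 of the 79 members, against 1.47% of all 18046 genes, 1 of 78 mitochondrial ribosomal protein genes and 3 of 97 respiratory chain genes. Rpl29, a large-subunit protein gene (chromosome 9, 106429454 to 106431568, plus strand), lay at 33.7, 46.4 and 36.7 TPM in high-extinction males and at 1.79, 37.8 and 2.35 in low-extinction males. In females its values were 2.01, 36.4 and 2.23 TPM in the high-extinction group and at 1.79, 61.0 and 37.3 in the low-extinction group. Its libraries lay either between 1.79 and 2.35 or between 33.7 and 61.0 TPM, and both levels occurred in every group but the high-extinction males. Rps15a stayed between 27.9 and 41.2 TPM in 11 libraries and was 2.83 TPM in replicate 3 of the low-extinction males. Rps28 stayed between 23.2 and 38.1 TPM in 11 libraries and was 1.57 TPM in replicate 1 of the high-extinction females. Rpl14 lay at 11.3, 12.2 and 106 TPM in low-extinction males and at 53.7 TPM or more in the other 9 libraries. By the SD of log2(TPM + 1) within groups, the 5 members with the largest spread were Rpl29 (1.91), Rpl24 (1.39), Rps16 (1.37), Rps18 (1.27) and Rps23 (1.17). By the ratio they were Rpl29 (22.3), Rps28 (13.96), Rps16 (11.6), Rpl27a (10.7) and Rps18 (9.69).

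When the TPM of the sequence-sharing pseudogenes was added to each gene, 0 of the 79 members had such a ratio, and the median largest ratio went from 1.84 to 1.41. This sum rests on larger values, which makes ratios smaller whatever the cause. In absolute terms the range within the group was smaller for the sum than for the gene alone in 4 of the 18 members and was not smaller in 14. Rpl29 in low-extinction females ranged over 59.2 TPM alone and 54.0 with its pseudogenes. Rpl14 in low-extinction males ranged over 94.4 alone and 122 TPM with Rpl14-ps1, which itself stayed between 231 and 266. The source of the switches was not tested.

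**Figure D3:**
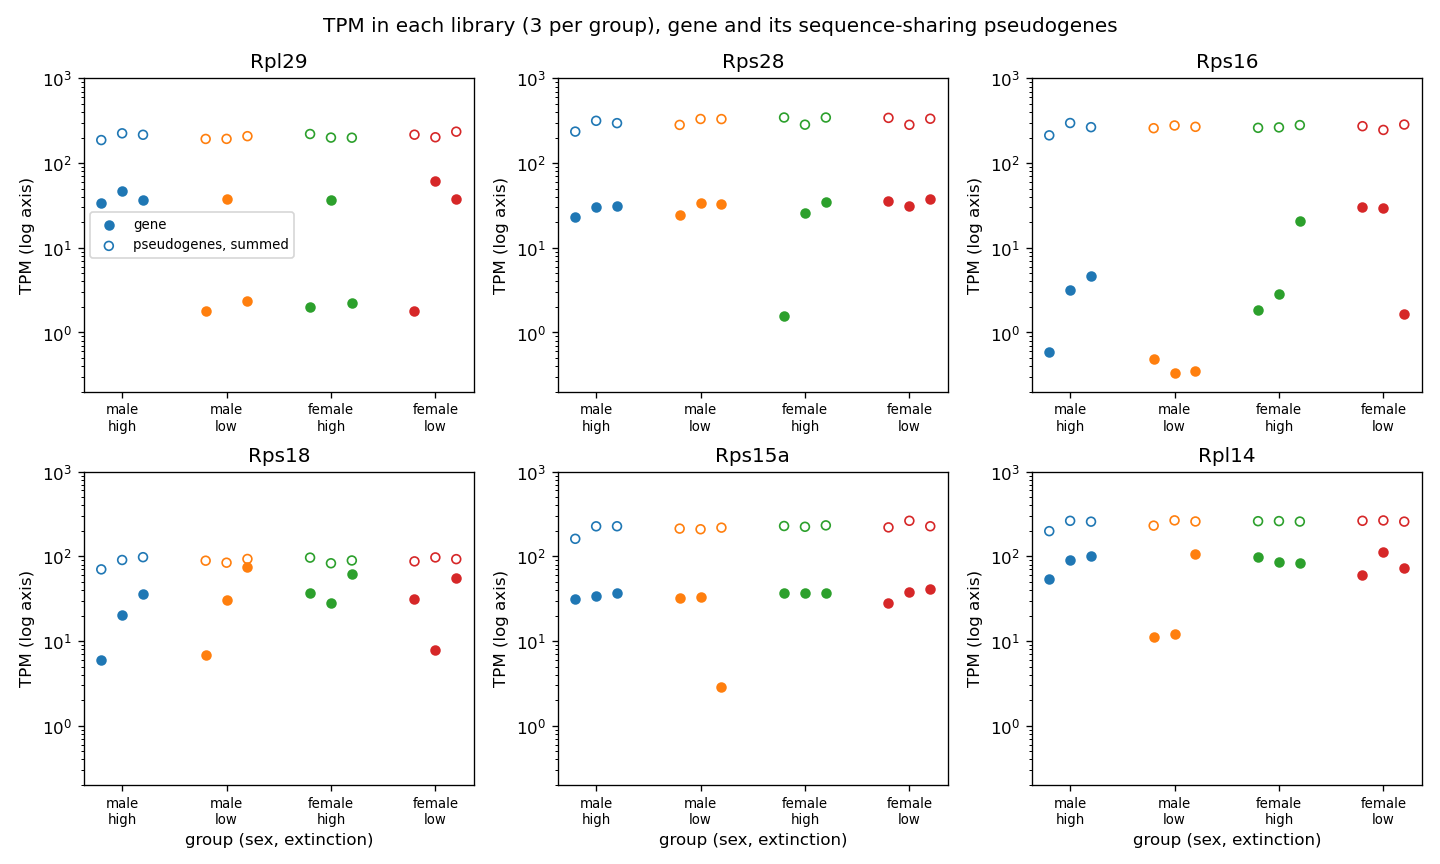
TPM (log axis) of 6 ribosomal protein genes in each library (filled points) and the summed TPM of their sequence-sharing pseudogenes (open points), by group. The genes fall to low values in single libraries, such as 2.83 TPM for Rps15a and 1.57 TPM for Rps28, while the summed pseudogenes vary less on this axis.

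For members with such ratios, the TPM change between low and high extinction and the fold change of the count-based table often differed. Their signs were the same in 8 of the 18 in males and 11 of the 18 in females, and in 39 and 44 of the other 61 members. The median absolute gap between the 2 values was 0.73 in males and 0.66 in females for the 18, and 0.090 and 0.092 for the other 61, on the log2 scale. Rps6 and Rps10 were among those of the same sign in males, and the next 3 examples are of opposite sign. On log2(TPM + 1), Rpl29 had a change of -2.47 in males (limma SE 0.91, adjusted p = 0.766), and the authors' deposited table, made from counts, gave 0.10 (SE 0.11). Rps16, a small-subunit protein gene, had a limma change of -1.27 in males, and the authors' deposited table gave 0.34 (SE 0.37). Rps23, which lies in the decoding centre, had a limma change of 1.61 in females, and the authors' deposited table gave -0.10 (SE 0.31). Across the 79 members, the authors' fold change and the TPM change had a Spearman correlation of 0.29 in males and 0.30 in females, against 0.76 and 0.73 over all genes. The deposited count-based table is used for the comparison of extinction levels, with TPM beside it. Which of the 2 lies closer to the true change of these genes was not tested.

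In the authors' deposited table for males, 66 of the 79 members lay above 0, that is, higher at low extinction, against 47.8% of 17913 genes. The median log2 fold change of the members was 0.068, and that of all genes -0.0064. No member was called at an adjusted p of 0.05, where 0.504% of all genes were and 0.389% were called lower, and 0 of the 79 had an unadjusted p under 0.05, against 7.58% of all genes. In the deposited table for females the direction was the opposite. There 56 of the 79 members lay below 0, against 53.8% of 18275 genes, with a median of -0.066 against -0.011. DESeq2 called 1 member, Rplp1, where 0.857% of all genes were called and 0.288% were called lower. An unadjusted p under 0.05 was found for 8 of the 79 members, near the share of 8.65% of all genes. All 8 lay lower at low extinction: Rplp1, Rplp0, Rpl4, Rpl41, Rps3, Rps14, Rps19 and Rps21. They had mean normalized counts of at least 500, and 6016 of 9616 genes with such counts lay below 0 in females. The direction of all genes with an unadjusted p under 0.05 was not counted. In the small subunit, 25 of 32 genes lay above 0 in males and 24 of 32 below 0 in females. In the large subunit, 41 of 47 and 32 of 47 did.

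Rplp1 encodes an acidic protein of the stalk, the part of the large subunit that recruits elongation factors (chromosome 9, 61913284 to 61914542, minus strand). In females it lay at 393, 380.4 and 402 TPM at high and at 382, 337 and 339 TPM at low extinction. The 2 groups overlapped by 1 library, and the low-extinction mean of 353 ± 25.1 TPM lay under the high-extinction mean of 392 ± 10.6 TPM (SD, n = 3 each). For low-extinction females the authors' deposited table has Rplp1 1.18-fold lower (log2 fold change -0.24, SE 0.07, DESeq2 adjusted p = 0.0461). From log2(TPM + 1), limma gave -0.15 (SE 0.07, limma adjusted p = 0.566). In males Rplp1 lay at 269, 371 and 375 TPM at high and at 326, 368 and 344 TPM at low extinction, and the authors' deposited table gave a log2 fold change of 0.20 (SE 0.10, DESeq2 adjusted p = 0.684). Rplp1 shares 60% of its 50-base stretches with other genes, and its leading pseudogene Gm11942 had 117 TPM.

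Neither the other stalk genes nor the other members described next passed the adjusted threshold in the authors' deposited tables. Rplp0, the base of the stalk, lay at 152, 114 and 147 TPM in high-extinction and at 125, 76.7 and 155 TPM in low-extinction females, with overlapping groups. Its log2 fold change in the authors' deposited tables was -0.16 (SE 0.07) in females and 0.02 (SE 0.09) in males. Rplp2, the partner of Rplp1 in the stalk, had -0.18 (SE 0.15) in females and 0.20 (SE 0.17) in males. Rpl41, which encodes the shortest protein of the large subunit, lay at 289.6, 296 and 273 TPM in high-extinction and at 257, 249 and 298 TPM in low-extinction females. Its log2 fold change was -0.19 (SE 0.07) in females and 0.12 (SE 0.10) in males. Rps19 was the only one of these genes whose female groups did not overlap, with 80.4, 80.4 and 80.1 TPM at high and 79.2, 75.1 and 72.6 TPM at low extinction. Rpsa, which also gives rise to a laminin receptor, had -0.11 (SE 0.08) in females and 0.05 (SE 0.11) in males. Rps6, the target of the S6 kinases, lay at 24.3, 7.51 and 31.5 TPM in high-extinction and at 4.80, 4.74 and 5.00 TPM in low-extinction males, and the groups did not overlap. Its sequence is 84.6% shared, its pseudogenes sum to 381 TPM, and the authors' deposited table gave -0.37 (SE 0.22, DESeq2 adjusted p = 0.777).

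The male minus female difference of the authors' log2 fold changes was above 0 in 64 of 79 members, against 51.4% of 17626 genes, with a median of 0.13 against 0.0056. Being above 0 in males and below 0 in females at the same time was seen in 46 of 79 members, against 23.8% of all genes, 35 of 78 mitochondrial ribosomal protein genes and 58 of 96 nuclear respiratory chain genes. The difference was tested gene by gene from the 2 deposited fold changes and their standard errors (a two-sided Wald test, adjusted over all genes). No member passed an adjusted p of 0.05, where 0.323% of all genes did, and 2 members had an unadjusted p under 0.05, against 6.01% of all genes. The 2 members were Rplp1, with a difference of 0.44 (SE 0.12, Wald adjusted p = 0.0905), and Rpl41, with 0.31 (SE 0.12, Wald adjusted p = 0.523). The largest differences by size were in low-count genes with large errors, led by Rps29 with 0.76 (SE 0.55). Rpl35 had 0.57 (SE 0.74), Rpl38 0.53 (SE 0.32), Rps23 0.51 (SE 0.46) and Rps28 -0.46 (SE 0.45).

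The opposite directions in the 2 sexes were also present among members with many counts and among members with little shared sequence. Among 40 members with a mean normalized count of at least 500 in both tables, 34 lay above 0 in males and 33 below 0 in females, and the difference was above 0 in 39. Of all genes with such counts, 44.3% lay above 0 in males, 37.4% in females and 54.0% in the difference. Among the 33 members that share under 50% of their sequence, 28 lay above 0 in males and 28 below 0 in females, and the difference was above 0 in 32. Among the 46 with more shared sequence, the counts were 38, 28 and 32. The background differed for short, well-counted transcripts. Of the other protein-coding genes with a median transcript under 1000 bases and such counts, 49.3% lay above 0 in males, 31.8% in females and 62.1% in the difference. Across the 79 members the male and female log2 fold changes had a Spearman correlation of 0.087, given as a description.

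**Figure D4:**
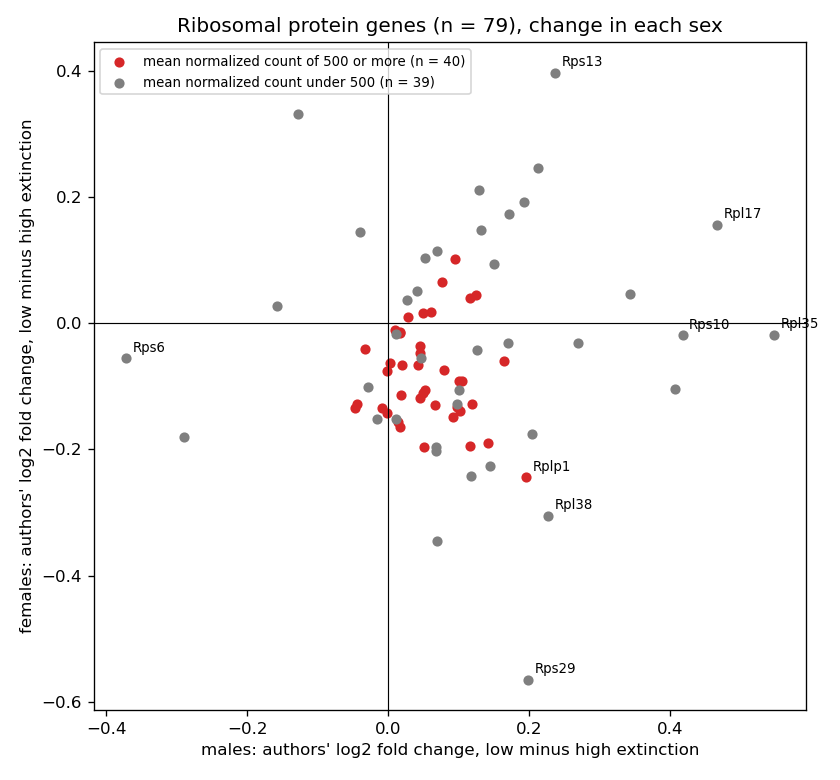
The authors' log2 fold change (low minus high extinction) of each of 79 ribosomal protein genes in males (x axis) and in females (y axis). Most points lie right of 0 and below 0, and the 40 genes with a mean normalized count of at least 500 (red) lie in a narrow cloud there, with Rplp1 at its lower right edge.

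The same question was asked library by library. Summed TPM of the 82 members took 0.397%, 0.547% and 0.512% of the library in high-extinction males and 0.457%, 0.515% and 0.507% in low-extinction males. In females the shares were 0.553%, 0.520% and 0.540% at high and 0.506%, 0.510% and 0.552% at low extinction. The group means were 0.485% ± 0.078 and 0.493% ± 0.032 in males and 0.537% ± 0.017 and 0.523% ± 0.026 in females (high and low, SD, n = 3 each), and the groups overlapped in both sexes. With genes derived from ribosomal RNA left out of the total, the shares were 0.609%, 0.592% and 0.611% in high-extinction and 0.565%, 0.565% and 0.588% in low-extinction females, which did not overlap. In males they were 0.499%, 0.620% and 0.567% at high and 0.528%, 0.595% and 0.579% at low extinction, which did. Replicate 1 of the high-extinction males, the library with the most ribosomal RNA, had the smallest share and was the lowest of the 6 male libraries for 46 of 79 members.

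TPM was then divided by a median-of-ratios size factor per library, which sets the middle of all genes level. On this scale 56 of 79 members lay above 0 in males, and without replicate 1 of the high-extinction males 37 did, against 51.4% of all genes. Without any other male library, 47 to 58 did. In females 26 lay above 0, against 53.0% of all genes, and 23 to 28 did without any 1 library. On this scale the male direction rested on 1 library, and the female direction did not. On unscaled TPM, 48 of 79 members lay above 0 in males, against 43.1% of all genes. Without that library 29 members did, against 31.1% of all genes, so the share of all genes fell as well. In females 33 did, against 69.1% of all genes. The authors' fold changes could not be recomputed without a library, since counts per library were not analysed here.

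**Figure D5:**
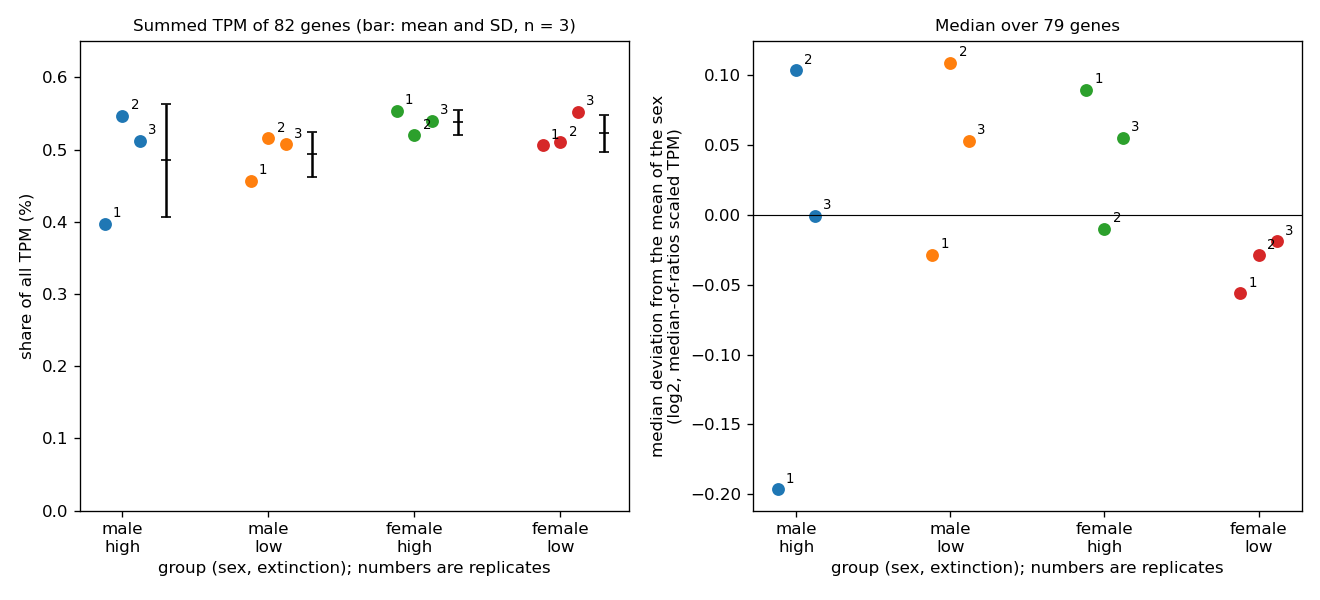
Left, share of all TPM taken by the 82 ribosomal protein genes in each library (points numbered by replicate, with the group mean and SD). Right, the median over 79 genes of each library's deviation from the mean of its sex, on the log2 scale of size-factor-scaled TPM. Replicate 1 of the high-extinction males is lowest in both, and the 3 low-extinction female libraries lie between -0.056 and -0.019, all below the high-extinction ones.

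Directions of change in several lists of cell type markers also differed between the sexes. In the authors' deposited tables all 8 hippocampal neuron markers lay above 0 in males (median log2 fold change 0.092) and 3 of 8 in females (median -0.053), and all 6 microglia markers lay above 0 in males and 1 of 6 in females. Markers of ependyma, the ciliated lining of the ventricles, ran the other way, with 0 of 5 above 0 in males (median -1.07, 3 of them called lower) and 5 of 5 in females (median 0.25). Blood markers had 5 of 5 above 0 in males (median 0.30) and 0 of 5 in females (median -0.36). Astrocyte markers had 4 of 5 (median 0.014) and 0 of 5 (median -0.017). No hippocampal neuron, microglia, blood or astrocyte marker was called in either sex. Thalamus markers had 0 of 4 above 0 in males and 4 of 4 in females, 1 of them called higher. Meningeal markers had 0 of 4 in males and 5 of 5 in females, 3 of them called higher. In the authors' deposited tables, other lists did not change direction in this way between the sexes. Inhibitory neuron markers had 0 of 3 above 0 in males and 1 of 3 in females, and endothelial markers 1 of 4 and 2 of 4. Oligodendrocyte markers had 0 of 5 above 0 in each sex, and choroid plexus markers 0 of 8. On log2(TPM + 1), 43.1% of all genes lay above 0 in males and 69.1% in females. Choroid plexus markers had 0 of 8 and 6 of 8 there, and oligodendrocyte markers 0 of 5 and 4 of 5. Inhibitory neuron markers had 0 of 3 and 3 of 3, and astrocyte markers 2 of 5 and 4 of 5. Blood markers had 2 of 5 and 0 of 5, and microglia markers 5 of 6 and 3 of 6. Hippocampal neuron markers had 7 of 8 and 4 of 8. Ependyma, thalamus and endothelial markers kept their counts. The 5 meningeal markers summed to 98.3 to 119 TPM in high-extinction and 41.3 to 87.6 TPM in low-extinction males, and to 75.8 to 80.7 TPM and 87.9 to 97.9 TPM in females. Choroid plexus markers summed to 513 to 4306 TPM in high-extinction and 150.0 to 1317 TPM in low-extinction males, and to 139 to 1664 TPM and 239 to 1554 TPM in females. In bulk tissue, fewer cells of a type and less RNA per cell cannot be told apart. The part of cell makeup in the ribosomal protein result was not tested.

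No member passed limma on log2(TPM + 1) in any comparison. In males limma called 0 of the 79 members and 0.0% of 18303 genes at an adjusted p of 0.05, with 10 members and 1151 genes at an unadjusted p under 0.05. In females it called 0 members and 0.0107% of 18668 genes, with 4 members and 1648 genes at an unadjusted p under 0.05. For the average of both sexes it called 0 members and 0.0% of 18046 genes (4 members and 1386 genes at an unadjusted p under 0.05), and for the male minus female difference 0 members and 0.00554% (6 members and 1430 genes at an unadjusted p under 0.05). The member with the smallest unadjusted p was Rpl26, whose protein lies near the exit of the nascent peptide. It lay at 66.3, 67.2 and 67.0 TPM in high-extinction and at 95.2, 101 and 98.7 TPM in low-extinction males, groups that did not overlap, and had a change of 0.55 (limma SE 0.07, adjusted p = 0.232). The authors' deposited table gave Rpl26 0.10 (SE 0.14) in males, and in females its groups overlapped. Averaged over both sexes, the largest limma changes were those of Rpl24 at 1.22, Rps28 at 0.75, Rpl35 at 0.61, Rps23 at 0.50 and Rps25 at 0.42. The smallest were Rpl21 at -0.92, Rpl14 at -0.90, Rps7 at -0.84, Rps6 at -0.80 and Rps15a at -0.59. All but Rps25 and Rpl35 of these 10 are among the 18 members with a ratio of 4 or more within a group.

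Low and high libraries did not overlap in males for 3 members higher at low extinction (against 4.2% of all genes) and 3 lower (against 7.28%). In females 2 members were higher (against 14.3%) and 4 lower (against 1.98%). In either direction this was 6 members in each sex, against 11.5% of all genes in males and 16.3% in females. No member was separated in both sexes. The 12 were Rpl26, Rps25 and Rps10 (higher in low-extinction males), Rps6, Rps16 and Rpl18 (lower), Rps26 and Rps13 (higher in low-extinction females), and Rps19, Rps29, Rps7 and Rpl36a (lower).

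Other genes of the translation machinery were compared from the authors' deposited tables. Ribosome components outside the symbol rule had 6 of 7 above 0 in males and 2 of 7 in females, with 0 called. Among them Fau, the precursor of a small-subunit protein, had a log2 fold change of 0.15 (SE 0.35) in males and -0.82 (SE 0.33) in females, and Rack1, a scaffold on the small subunit, had 0.055 (SE 0.084) and -0.12 (SE 0.061). Elongation factors and other TOP mRNAs had 15 of 19 above 0 in males and 7 of 19 in females, with 0 called. Gas5, a TOP transcript that hosts small nucleolar RNAs, had 0.23 (SE 0.078) in males and 0.069 (SE 0.068) in females, and Pabpc1, the poly(A)-binding protein, -0.022 (SE 0.064) and -0.090 (SE 0.063). Ribosome biogenesis genes had 18 of 41 above 0 in males and 15 of 41 in females, close to the share of all genes in males, with 0 called. In that list Bysl, needed to mature the small subunit, had -0.16 (SE 0.094) in males and -0.20 (SE 0.097) in females.

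Of 18 regulators of ribosomal protein translation, 9 lay above 0 in males and 8 in females. DESeq2 called 1 of them in males and 2 in females, all higher at low extinction. Of all genes 0.504% were called in males and 0.857% in females, and 0.115% and 0.569% were called higher. The list was chosen with earlier results of these data known, so its number of calls is only a description. Tia1 was called in both sexes, with 0.28 (SE 0.073, DESeq2 adjusted p = 0.0441) in males and 0.23 (SE 0.064, DESeq2 adjusted p = 0.0363) in females. Tial1 was called in females, with 0.22 (SE 0.061, DESeq2 adjusted p = 0.0422), and had 0.12 (SE 0.065, DESeq2 adjusted p = 0.717) in males. Eif4ebp2, the main neuronal repressor of the cap-binding factor, had -0.14 (SE 0.068) and -0.15 (SE 0.059), neither of them called. Of the 79 ribosomal protein genes, 30 had the same sign in both sexes and 49 opposite signs.

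Mitochondrial ribosomal protein genes, which serve another ribosome, had 52 of 78 above 0 in males and 22 of 78 in females, with smaller medians of 0.028 and -0.038. Nuclear respiratory chain genes had 65 of 96 above 0 in males and 12 of 97 in females, with medians of 0.029 and -0.085. Initiation factor genes had 28 of 58 and 21 of 56, near the share of all genes in males.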

How the data were processed

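Polyadenylated RNA from 12 hippocampi was sequenced, with 1 µg of total RNA entering each library (per the labels' protocols). Without giving roles, the submitters' processing notes list the builds GRCm38.p5 and mm10 and the tools DESeq2, StringTie 1.3.3b, HTSeq, Bowtie2 and TopHat2. The sources used here do not give the strand setting or the treatment of reads that match several genes. Levels are TPM as the authors deposited them for each sex, a unit that keeps no depth. They also deposited, per the file headers, a table per sex with the mean of normalized counts (a signal), the log2 fold change with standard error, a score (its test statistic), and each p-value, raw and adjusted. The tables do not name the fold change's direction. Over 17913 male and 18275 female genes it correlated at -0.578 and -0.463 with the low minus high TPM change, and 90 of 90 and 131 of 132 called genes had opposite signs, so it was multiplied by -1.

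Library columns were matched through the mice named in the titles, and replicate numbers follow record order. Genes averaging 1 TPM or more were tested on log2(TPM + 1) with limma 3.58.1 in R 4.3.3 (mean-variance trend, Benjamini-Hochberg at 0.05), within each sex and over 12 libraries for the average and the male minus female difference. Fold changes on this scale understate those of low genes. On simulated data the limma step was tested first. Sequence sharing, transcript lengths and positions came from GENCODE M21 (GRCm38), which holds 52403 of the 52636 identifiers, and promoters used RefSeq. Pseudogenes were assigned to the member with which they share most 50-base stretches. Python 3.11.15 with pandas 2.3.3, scipy 1.17.1 and matplotlib 3.10.9 was used. The members and the gene lists were chosen with earlier results of these data known. Named are the members called, the 5 largest and 5 smallest average changes, the 5 largest male minus female differences, the 5 highest and lowest levels, the 5 largest spreads, paralogs, Rps6, Rpsa and the stalk genes. Other named members were picked as examples after their values were seen. Alternatives were other pseudocounts, filters, scalings, thresholds, a fit without the trend, 1 fit over all libraries and leaving out each replicate. The male minus female Wald test, the splits by count and by shared sequence, and the sums with pseudogenes were added after the data were seen. The values of 1 member are not reported here by name.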

Additional observations from a re-analysis of the deposited data

How the results depend on the processing

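No paired analysis was possible because replicate numbers were given in record order and pair no mice. No member was called by limma in any comparison under any alternative with all libraries. Leaving out 1 library gave 0 to 1 called members in males and 0 to 2 in females, and 0 on average and in the male minus female difference. Those called were Rps6 without replicate 2 of the high-extinction males (-2.29, limma adjusted p = 0.00908), Rpl29 without replicate 2 of the low-extinction males (-3.69, limma adjusted p = 0.00266), and Rps10 and Rps23 without replicate 3 of the low-extinction females (-2.31, limma adjusted p = 0.0116, and 2.49, limma adjusted p = 0.0310). Each had switched to another level in the library left out. Calls over all genes were 2 to 6 in males, 4 to 10 in females, 0 to 3 on average and 1 to 4 in the difference when 1 library was left out. With all libraries, 1 fit over 12 gave 1 call in males and 0 in females, no filter gave 1 in females and a mean of at least 5 TPM gave 4, and limma without a trend gave 2 in the difference. The members' median change, 0.047 in males, ran from -0.098 (without replicate 1 of the high-extinction males) to 0.15. The median over all genes moved as well, from -0.022 with all male libraries to -0.071 without that replicate. In females the members' median was -0.028, against 0.064 over all genes, and ran from -0.065 to 0.0043. Median-of-ratios scaling gave -0.086 in females, against 0.0094 over all genes. The members' median ran from -0.068 to 0.056 for the average and from -0.031 to 0.17 for the difference. The limma change of Rplp1 in males, 0.047, went to -0.11 without replicate 1 of the high-extinction males and to 0.13 without replicate 3, and the cause was not tested. At an adjusted p of 0.1 the authors' tables still call 0 members in males and 1 in females. Depth per library is unknown, and 3 mice per group limit each test.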
